A study of Mus musculus with 10 samples.

Results

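Promoter H3K4me3 peaks without an ATAC-seq peak were described in F123 cells, a mouse embryonic stem cell (ESC) line from a cross of Mus musculus castaneus and S129/SvJae. The members were chosen by position from the deposited peak lists. They are the H3K4me3 ChIP-seq peaks on chromosomes 1 to 19 that overlapped the 1 Kb either side of the start of a protein-coding transcript (GENCODE M21, build mm10) and shared no base with any ATAC-seq peak. This gave 398 members of 15290 autosomal promoter peaks, among 33487 H3K4me3 peaks in all. The other 14892 promoter peaks had a base or more in common with open chromatin and are called open promoter peaks below. The cells were grown with LIF on irradiated CF1 mouse embryonic fibroblast feeders and passaged once without feeders before harvest, and no treatment or genotype was compared. Each assay had 2 replicates, deposited as 1 list of replicated peaks, so no value has a spread between replicates, no test was made and the depth of the libraries is unknown. Intervals below are 95% intervals that treat peaks as independent and cover counting error only (Wilson for shares, order statistics for medians).

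Trimethylation of lysine 4 on histone H3 is laid down on the nucleosomes around active or poised gene starts, and is strongest at starts rich in CpG. ATAC-seq inserts sequencing adapters with the Tn5 transposase where DNA is free of nucleosomes, so its peaks usually lie over the start itself and the mark lies on the nucleosomes to either side. Embryonic stem cells are known for carrying the mark also at many developmental genes that are not yet active, often together with repressive marks of the Polycomb complexes.

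All 6 ESC marker genes examined (Pou5f1, Sox2, Nanog, Zfp42, Esrrb and Tdgf1) had an open promoter peak and no member. Of 10 fibroblast markers, 7 (Col1a1, Col1a2, Thy1, Pdgfrb, Dcn, Twist2 and Prrx1) had a promoter peak, none of them a member, and Col3a1, Lum and Postn had none. Over a longer list of feeder-cell genes, 0 of 21 promoter peaks were members, which allows a share of up to 15.5%.

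The DNA before and after the start (250 bases before to 50 after, 5′ to 3′ along the gene, read from mm10) is shown for 3 of the strongest members of their kind, with each CpG in capitals. Shisal1 (chr15:84446496-84446795, minus strand) had the strongest member, and its start lay inside the peak. Stag3 (chr5:138280306-138280605, plus strand), which codes for a meiotic cohesin subunit, had the strongest member of a germline gene, and its start lay outside the peak. That member overlapped the 1 Kb around a start that also had an open promoter peak. Hoxd3 (chr2:74732663-74732962, plus strand), a homeobox gene of body-axis patterning, had the strongest member of a developmental regulator, over a start.
Shisal1: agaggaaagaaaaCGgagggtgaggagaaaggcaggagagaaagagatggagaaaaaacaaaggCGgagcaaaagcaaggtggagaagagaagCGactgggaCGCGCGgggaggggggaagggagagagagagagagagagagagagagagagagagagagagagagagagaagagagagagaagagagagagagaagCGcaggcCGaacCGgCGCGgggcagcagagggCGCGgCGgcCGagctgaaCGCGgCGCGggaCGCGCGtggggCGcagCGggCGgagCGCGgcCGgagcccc
Stag3: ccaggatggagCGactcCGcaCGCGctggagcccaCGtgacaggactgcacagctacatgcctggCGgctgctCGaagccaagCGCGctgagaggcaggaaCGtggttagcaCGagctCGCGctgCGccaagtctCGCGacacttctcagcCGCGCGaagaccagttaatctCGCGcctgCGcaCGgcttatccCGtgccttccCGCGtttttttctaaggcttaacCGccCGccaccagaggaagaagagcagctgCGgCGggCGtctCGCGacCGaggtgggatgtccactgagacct
Hoxd3: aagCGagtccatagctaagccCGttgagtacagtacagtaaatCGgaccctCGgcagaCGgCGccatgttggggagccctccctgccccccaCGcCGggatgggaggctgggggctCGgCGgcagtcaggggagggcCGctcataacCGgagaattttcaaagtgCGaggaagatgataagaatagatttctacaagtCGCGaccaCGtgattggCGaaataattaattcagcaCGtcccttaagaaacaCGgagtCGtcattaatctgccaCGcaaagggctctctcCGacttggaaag
The windows of Shisal1, Stag3 and Hoxd3 held 28, 34 and 22 CpGs. The observed to expected ratio of CpG, which is 1 where CpG is as frequent as its bases allow, was 1.26, 1.11 and 0.974. These windows were denser in CpG than most of the members' windows, whose median ratio was 0.390.

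Members were 2.6% of the autosomal promoter peaks (interval 2.36% to 2.87%). Away from coding starts, 22.3% of the autosomal H3K4me3 peaks (3837 of 17206) shared no base with an ATAC-seq peak, a larger share than at promoters. The strength and width of these peaks were not matched to those of promoter peaks. By gene, 392 of the 14351 coding genes with a promoter peak had at least 1 member. Only members marked 104 genes, 0.725% of the genes with a promoter peak (0.598% to 0.877%), and 44 of those 104 still had an ATAC-seq peak within 1 Kb of one of their starts, outside the H3K4me3 peak. The other 60 genes had an H3K4me3 peak at a start and no ATAC-seq peak within 1 Kb of any of their coding starts.

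Members were narrow and weak. Their width had a median of 523.5 bp (495 to 559) and ran from 223 bp to 4826 bp, against a median of 2015 bp (1996 to 2034) for open promoter peaks. A wider peak has more bases that can be shared with an ATAC-seq peak, so width is bound to the rule. Their fold enrichment, the authors' ratio of signal in the peak over the background of the peak caller, had a median of 3.50 (3.38 to 3.58) against 28.2 (28.0 to 28.6). The members ran from a fold of 1.99 to 31.4. Below a fold of 5 were 318 members (79.9%) and 6.18% of the open promoter peaks, and 1 member of 398 reached the median fold of the open ones. The −log10 of the q-value had a median of 7.36 in members and 398 in open promoter peaks, and 102 members (25.6%) had a value under 5, against 0.645%.

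**Figure D1:**
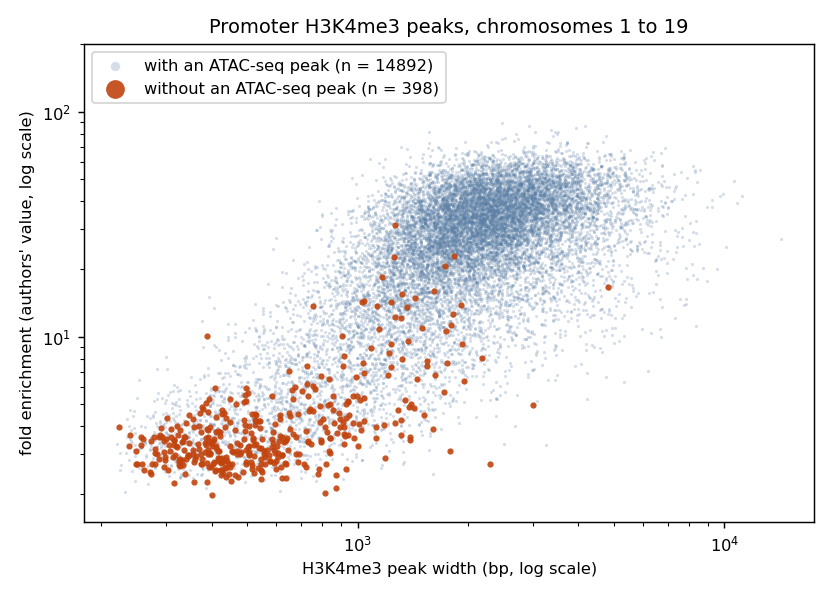
Width in bp (x axis, log scale) against the authors' fold enrichment (y axis, log scale) of each promoter H3K4me3 peak on chromosomes 1 to 19, with the 398 members in orange and the 14892 open promoter peaks in blue. Most members sit in the narrow, weak corner, at a median of 523.5 bp and a fold of 3.50, with a thin tail that reaches into the main cloud.

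The share of promoter peaks without an ATAC-seq peak fell with width and with strength. It was 24.8% (109 of 439) among peaks of 200 to 400 bp, 21.6% at 400 to 600 bp, 6.69% at 800 to 1000 bp, 1.85% at 1000 to 1500 bp and 0.053% (4 of 7552) from 2000 bp. By fold enrichment it was 39.6% (116 of 293) below 3, 27.8% from 3 to 4, 11.7% from 4 to 6, 2.61% from 6 to 10, 0.826% from 10 to 20 and 0.039% (4 of 10195) from 20. At the same width, members were still the weaker peaks: at 400 to 600 bp their median fold was 3.10 against 4.58, and at 1000 to 1500 bp it was 6.78 against 19.4. At a fold from 3 to 6, members were about as wide as open promoter peaks (469.5 bp against 477 bp from 3 to 4, and 664 bp against 664.5 bp from 4 to 6). Their median width was 1215.5 bp against 1097 bp from 6 to 10, and 1311 bp against 1598 bp from 10 to 20. Below a fold of 6, 22.3% of promoter peaks were members (347 of 1556), and from 6 upwards 0.371% (51 of 13734).

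**Figure D2:**
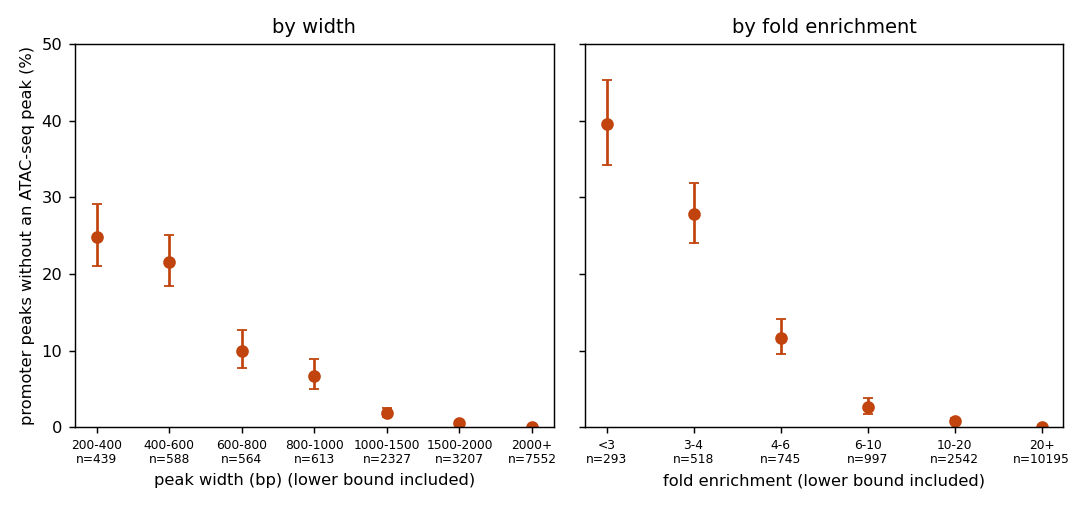
Share of promoter peaks without an ATAC-seq peak (y axis, percent) in bins of peak width in bp (left) and of fold enrichment (right), with the number of peaks under each bin. Points are shares and bars are 95% Wilson intervals, and the share falls from 24.8% to 0.053% with width and from 39.6% to 0.039% with fold.

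Members lay beside the start more often than over it. A coding start was covered by 133 members (33.4%; 29.0% to 38.2%) and by 91.7% of open promoter peaks. ATAC-seq peaks usually lie over the start, so covering a start is bound to the rule, within bins of fold too. Upstream of their nearest start lay 114 members (28.6% against 5.14%), and downstream lay 151 (37.9% against 3.20%). A start of a principal transcript, the main isoform in the APPRIS annotation, was covered by 70 members (17.6%) and by 83.7% of open promoter peaks. Within bins of fold the difference was smaller and had the same direction: below 3, 18.1% of members (21 of 116) and 40.7% of open promoter peaks (72 of 177) covered a start, from 3 to 4 it was 26.4% and 43.6%, and from 4 to 6 it was 42.5% and 59.3%. From 6 to 10 the intervals overlapped (65.4%, 46.2% to 80.6%, against 74.2%, 71.3% to 76.8%).

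Most members had open chromatin close by. An ATAC-seq peak lay at most 50 bp away from 36 members, at most 500 bp from 167 (42.0%), at most 1000 bp from 246 (61.8%) and at most 5000 bp from 375 (94.2%). The median distance was 633.5 bp (557 to 791), and 11 members were over 10000 bp away. Another H3K4me3 peak lay within 1 Kb of 247 members (62.1%), against 19.9% of open promoter peaks, and the median distance to the next H3K4me3 peak was 396 bp against 10279 bp. Of the start windows that members overlapped, those of 232 members (58.3%) held an ATAC-seq peak, against 99.6% for open promoter peaks, a share that the rule nearly fixes.

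Sorted by what else marked the gene, the members fell into 3 classes. At the same start as an open promoter peak were 194 members (48.7%; 43.9% to 53.6%), against 11.5% of open promoter peaks that shared a start with another open one. Most lay to the side of it: 80 were upstream of the nearest start, 80 downstream, and 34 covered a start. The strongest open peak at the same start had a median fold of 18.6 and a median width of 1878.5 bp, while the members of this class had medians of 3.29 and 501 bp, and the gap between a member and the nearest such peak had a median of 195 bp and ran from 51 bp to 1629 bp. A further 98 members (24.6%) belonged to a gene that had its open promoter peak at another start, and 50 of them covered a start. Their median fold was 3.57, their median width 589 bp and their median distance to an ATAC-seq peak 1566 bp. The last 106 members (26.6%) belonged to genes with no open promoter peak at any start. Of these 49 covered a start and 44 lay downstream, with a median fold of 3.75, a median width of 519 bp and a median distance of 1125 bp to an ATAC-seq peak. An ATAC-seq peak lay in the start window of 172 of the 194, 19 of the 98 and 41 of the 106. The share with an open peak at the same start was above that of open promoter peaks of the same fold from 3 to 4 (52.8%, 44.7% to 60.8%, against 31.3%, 26.8% to 36.2%). Below 3 it was higher too, but the intervals overlapped slightly (58.6%, 49.5% to 67.2%, against 42.9%, 35.9% to 50.3%). From 4 to 6 the intervals also overlapped (39.1%, 29.5% to 49.6%, against 32.2%, 28.8% to 35.9%).

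**Figure D3:**
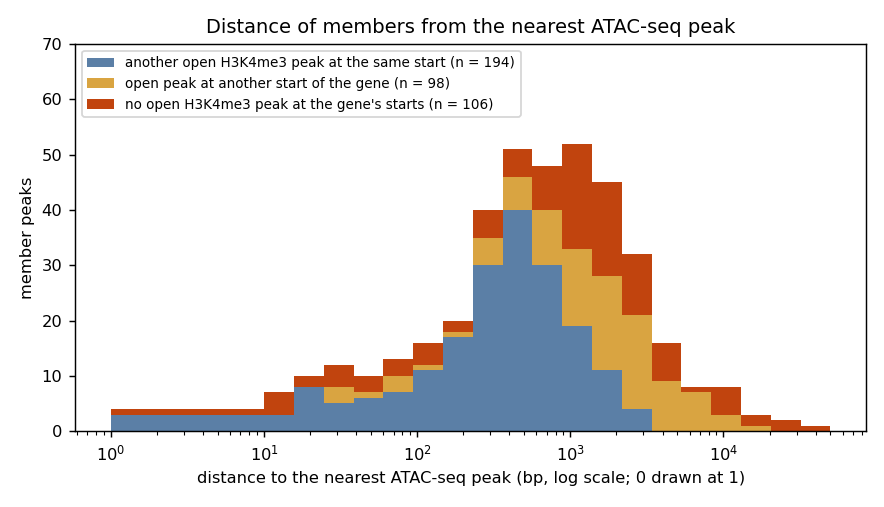
Number of members (y axis) by distance in bp to the nearest ATAC-seq peak (x axis, log scale, with a distance of 0 drawn at 1), stacked by class: an open H3K4me3 peak at the same start (blue, 194), at another start of the gene (yellow, 98) or at none (orange, 106). Members beside an open peak of the same start make up most of the nearer bins, and the median distance over all members is 633.5 bp.

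The DNA around the members' starts was poor in CpG. In the window from 250 bases before to 50 after the nearest start, the median observed to expected ratio of CpG was 0.390 (0.355 to 0.420, 397 members) against 0.756 in open promoter peaks, and the median GC content was 53.7% against 62.3%. The window of Jrkl was left out because it held unknown bases. Windows rich in CpG (GC of at least 50% and a ratio of at least 0.6) were found at 82 of 397 members (20.7%; 17.0% to 24.9%), at 67.9% of open promoter peaks and at 43.6% of all 52063 starts. In fold bins the shares lay closer and their intervals overlapped: 15.3% of members (10.3% to 22.0%) and 19.5% of open promoter peaks (15.8% to 23.8%) had such a window from 3 to 4, and 19.5% (12.6% to 29.1%) against 22.2% (19.2% to 25.5%) from 4 to 6. Repeats (soft-masked bases) made up a median of 9.42% of a member, against 10.5% of an open promoter peak, and over 50% of the bases in 19 members (4.77%; 3.08% to 7.34%), against 0.316% of open promoter peaks (0.237% to 0.419%). The share over 50% was not compared at the same width. The median at 200 to 400 bp was 7.10% in members against 8.29%, and at 400 to 600 bp 10.2% against 8.55%.

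**Figure D4:**
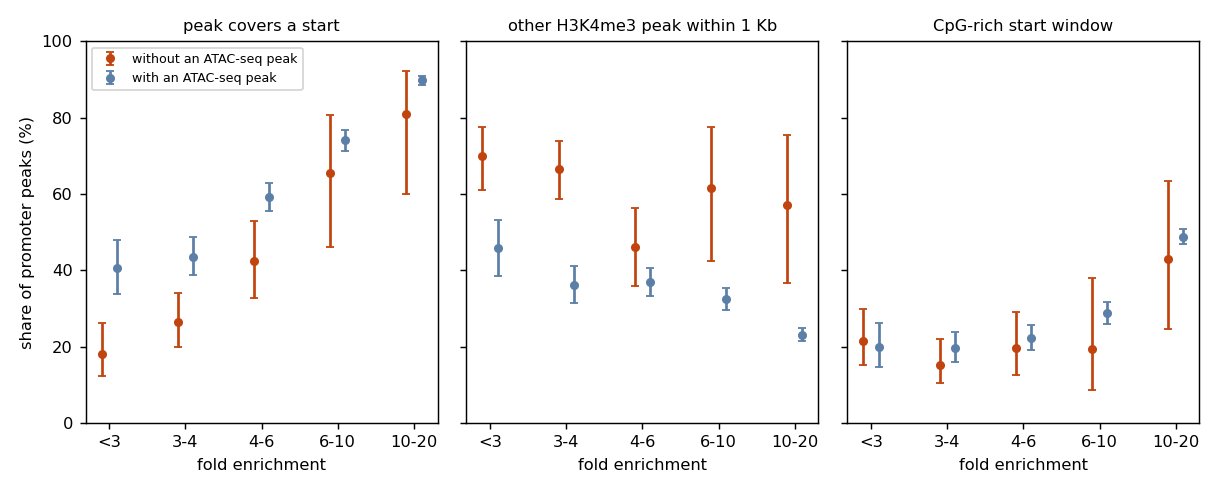
Share of promoter peaks (y axis, percent) that cover a coding start, that have another H3K4me3 peak within 1 Kb, or whose start window is rich in CpG, in bins of fold enrichment (x axis), for members (orange) and open promoter peaks (blue) with 95% Wilson intervals. Members cover a start less often below a fold of 6, have a near neighbour more often in every bin drawn, with overlapping intervals from 4 to 6, and have a CpG-rich window at shares whose intervals overlap (15.3% and 19.5% from 3 to 4). Covering a start is bound to the rule that chose the members. The 4 members with a fold of 20 or more are not drawn.

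Short motifs were counted in the same windows on both strands. GGGCGG, the core bound by Sp1-type factors, was in 28.5% of the members' windows (24.2% to 33.1%), 65.4% of those of open promoter peaks and 43.5% of all coding starts. The ETS-type CCGGAAG was in 2.77%, 14.6% and 10.9%, and the YY1-type AAGATGGC in 0.756%, 4.00% and 3.30%. TATAAA, the letters of the TATA box, was in 12.3% (9.46% to 15.9%) of members' windows, 5.90% of those of open promoter peaks and 11.3% of all starts. CCAAT (32.2%, 35.7% and 35.6%) and the E-box CACGTG (8.06%, 9.25% and 7.47%) differed little. GGCGGGAA, the E2F-type letters, which can overlap GGGCGG, was in 2.52%, 4.20% and 2.81%, and the NRF1-type GCATGCGC in 1.76%, 4.39% and 3.12%. The shares describe letters, not binding. Within fold bins GGGCGG was in 20.7% of the members' windows (13.5% to 30.4%) and 38.6% of those of open promoter peaks (35.0% to 42.4%) from 4 to 6, while from 3 to 4 the intervals overlapped (28.5%, 21.7% to 36.3%, against 34.8%, 30.1% to 39.7%). Below 3 they overlapped too (32.8%, 24.9% to 41.7%, against 35.0%, 28.4% to 42.3%). TATAAA below 3 was in 14.7% (9.36% to 22.2%) against 6.78% (3.92% to 11.5%), and from 3 to 4 in 11.1% against 11.8%. From 4 to 6 it was in 14.9% against 9.73%, and from 6 to 10 in 3.85% against 9.47%.

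The strongest members were at starts of genes with varied functions. The highest fold, 31.4, was at Shisal1 (chr15:84445636-84446900), whose peak of 1265 bp lay 119 bp from an ATAC-seq peak. Fstl3, which codes for a secreted binder of activin, had a fold of 22.8 (chr10:79776686-79778518, 1488 bp from an ATAC-seq peak). The peak at Blvrb, the gene of biliverdin reductase B, and Sptbn4, a spectrin gene, had 22.7 (chr7:27445727-27446986, 581 bp away). A peak upstream of Vars, the valyl-tRNA synthetase gene, had 20.6 (chr17:34998649-35000374, 348 bp away). These 4 were the members with a fold of 20 or more, and 3 of them covered a start, all but that of Vars. Next came Gipc3 (18.4), a gene needed for hearing, the gene models 4930412O13Rik and 9230102O04Rik under 1 peak (16.7), the transcription factor gene Nfic (15.9), Dlg4 (15.5), which codes for the scaffold PSD-95 of synapses, Jrkl (14.9) and Igfbp6 (14.4), which codes for a binder of insulin-like growth factors. All 6 covered a start. Shisal1, Fstl3, Gipc3, both gene models, Jrkl and Igfbp6 had no open promoter peak at any start, while Nfic and Dlg4 had one at another start. The member at Blvrb and Sptbn4 and that at Vars lay at the same start as an open promoter peak.

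Few members were wide. The widest, 4826 bp at the gene models 4930412O13Rik and 9230102O04Rik (chr2:9879944-9884769), ended 43 bp from an ATAC-seq peak. Pax2, a regulator of kidney, eye and ear development, had a member of 3002 bp over a start (chr19:44758753-44761754) at a fold of 4.97. B230307C23Rik had one of 2302 bp downstream of its start at a fold of 2.73 and 10617 bp from an ATAC-seq peak. Asic4, of the acid-sensing ion channel family, had one of 2183 bp (fold 8.01), and Tefm, the mitochondrial transcription elongation factor gene, one of 1953 bp (fold 6.34). The rest of the members were narrower than that.

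The members farthest from open chromatin were weak to moderate. Ccdc121 lay 34255 bp from an ATAC-seq peak, with a fold of 4.30. Krt71 (26544 bp, fold 4.76), a keratin of the hair follicle, Zbtb20 (21666 bp, fold 4.07), which codes for a transcriptional repressor, Ntm (17854 bp, fold 9.60), which codes for the cell adhesion protein neurotrimin, and Nat8f2 (15329 bp, fold 2.72) followed. Zbtb20, Ntm and Nat8f2 had the peak over a start.

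The members nearest to an ATAC-seq peak were weak. Specc1 (fold 2.72) touched an ATAC-seq peak without sharing a base, and Derl3 (3.37), Sh3rf2 (3.06) and Ulbp1 (3.13) lay 5, 6 and 7 bp away. Just outside the rule, Ndufa4l2 (2.88) and Pcdha11 (4.58) shared 1 bp, Morc3 (3.96) 2 bp and the peak of 9030025P20Rik and Gm3417 (9.02) 3 bp. Of the open promoter peaks, 82 shared at most 50 bp and 235 at most 100 bp.

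Developmental transcription factors held 24 of the members, 7.67% of their 313 promoter peaks (5.21% to 11.2%) against 2.6% of all promoter peaks. Below a fold of 6 it was 22 of 46 peaks (47.8%) against 22.3% of all. Of the 24, 16 lay at the same start as an open promoter peak, 4 belonged to a gene open at another start, and 4 to genes with no open promoter peak. Hoxd3 (fold 12.6, 1820 bp, 1224 bp from an ATAC-seq peak) and Hoxa6 (12.1, 1311 bp, 1949 bp away), both homeobox genes of body-axis patterning, stood above the rest. Hoxd3 had an open promoter peak at another start, and Hoxa6 had none and carried a second member of 259 bp with a fold of 2.73. Pax2 (4.97), Foxc2 (4.28), a forkhead gene of mesoderm, Evx1 (4.12), a homeobox gene of the early embryo, and Tbx5 (3.98), a T-box gene of heart and forelimb, followed, and the members of Foxc2, Evx1 and Tbx5 lay beside an open peak of the same start. The median fold of the 24 was 3.43, and that of the open promoter peaks on the list was 14.8. Several of the 24 lay in Hox clusters, so they are not independent of each other. Only members marked 3 of the list's 235 genes with a promoter peak: Hoxa6, Foxn1, the regulator of the thymic epithelium, and Foxs1. That was 1.28% (0.435% to 3.69%), an interval that held the 0.725% of all genes with a promoter peak.

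Clustered protocadherins give neurons cell-surface identities and lie side by side on chromosome 18. They held 11 members among 54 promoter peaks (20.4%; 11.8% to 32.9%), against 2.6% of all promoter peaks. Below a fold of 6 it was 11 of 22 peaks, against 22.3% of all. Of the 11, 8 lay at the same start as an open promoter peak, and Pcdha3 (fold 4.58), Pcdhb14 (4.55) and Pcdhb12 (3.58) had no open promoter peak. Pcdhga12 (4.05), Pcdha9 (3.77) and Pcdhgb1 (3.46) were other examples. All folds of the list's members lay between 2.46 and 4.58. These members come from 1 stretch of the chromosome, so they are not independent of each other. Chromosome 18 had the highest share of members of the 19 autosomes (20 of 444, 4.50%; 2.93% to 6.85%), and 14 of its 20 members lay in the stretch of the protocadherins. The rest of the chromosome had 6 members among 385 promoter peaks (1.56%; 0.716% to 3.36%). The lowest share was on chromosome 13 (6 of 599, 1.00%; 0.460% to 2.17%).

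Keratins, the filament proteins of epithelia and hair, had few promoter peaks, and 5 of these 16 were members (31.3%; 14.2% to 55.6%), against 2.6% of all promoter peaks. Below a fold of 6 it was 5 of 10, against 22.3% of all. They were Krt71 (4.76), Krt4 (4.54), Krt72 (4.30), Krt28 (3.58) and Krt17 (3.23), in the keratin clusters of chromosomes 15 and 11. Peaks of the same cluster are not independent of each other. None of the 5 genes had an open promoter peak, 4 of the 5 peaks covered a start, and they lay 805 bp (Krt17) to 26544 bp (Krt71) from an ATAC-seq peak. The other 11 keratin peaks were open with a median fold of 6.16.

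**Figure D5:**
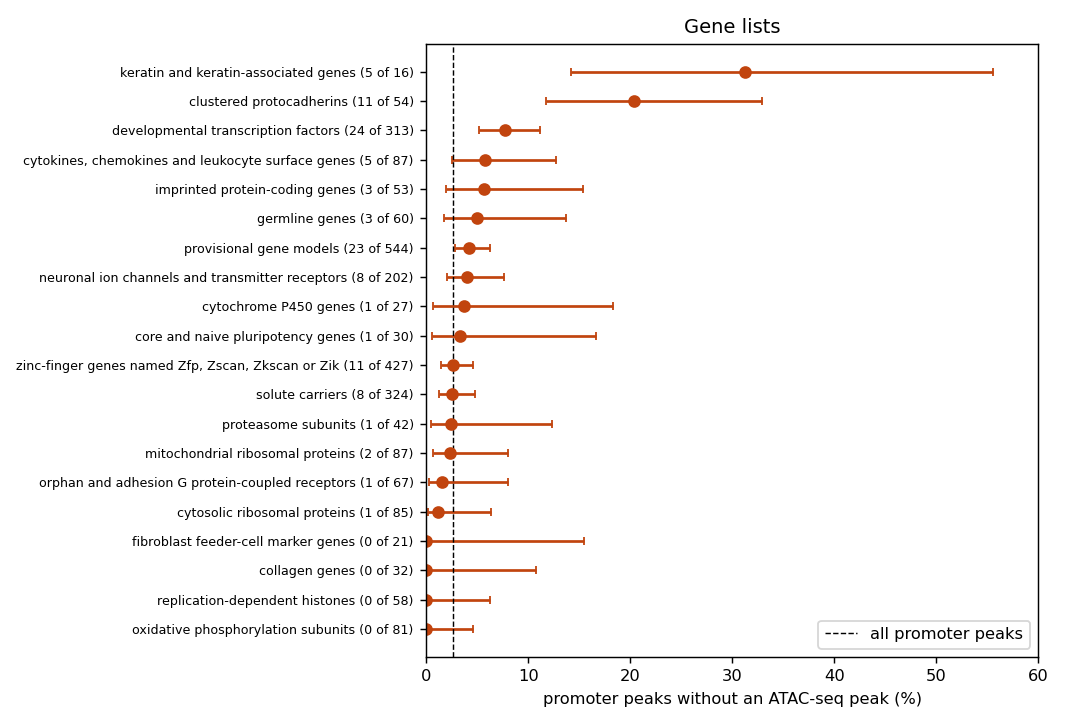
Share of promoter peaks without an ATAC-seq peak (x axis, percent) for each gene list with at least 10 promoter peaks (member peaks of all promoter peaks in brackets), with 95% Wilson intervals and the share over all promoter peaks as a dashed line. Keratins, clustered protocadherins, developmental transcription factors and provisional gene models have intervals above the 2.6% of all promoter peaks. The intervals treat neighbouring peaks of a gene cluster as independent.

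The other lists had shares whose intervals held 2.6%, apart from the gene models with provisional names, whose 23 of 544 (4.23%; 2.83% to 6.26%) lay just above it. Below a fold of 6 it was 20 of 77 peaks of the gene models (26.0%), near the 22.3% of all promoter peaks. The gene models' members at Gm37013 and Gm37388 lay in the protocadherin stretch of chromosome 18, so they are not independent of the protocadherin members. Cytokine, chemokine and leukocyte surface genes had 5 of 87 (5.75%; 2.48% to 12.8%): the peak at Ccr10 and Cntnap1 (9.26), Il27ra (4.47), Cd80 (3.46), Cd38 (3.39) and Cd37 (3.18). Imprinted genes had 3 of 53, at Grb10 (3.94), Igf2 (3.69) and Kcnq1 (2.91), each at the same start as an open peak. Germline genes had 3 of 60, at Stag3 (4.94), whose window is shared with Gpc2, Tuba3a (3.09) and Zcwpw1 (2.48). The members of Stag3 and Zcwpw1 lay at the same start as an open peak. Neuronal ion channels and receptors had 8 of 202 (3.96%), led by Grin2d (11.3), an NMDA receptor subunit gene, Grm2 (7.64), a metabotropic glutamate receptor gene, Scn8a (5.29), a sodium channel gene, and the potassium channel genes Kcnj6 (4.11), Kcnd3 (3.58) and Kcnj11 (2.98). The members of Grin2d, Grm2, Scn8a, Kcnj6 and Kcnd3 belonged to genes open at another start. Zinc-finger genes had 11 of 427 (2.58%), led by Zfp536 (6.60), Zfp989 (4.30), Zfp955a (4.15), Zfp988 (3.65), Zfp445 (3.53) and Zfp942 (3.44). Solute carriers had 8 of 324 (2.47%), led by Slc26a8 (14.3), Slc26a10 (10.8) and Slc6a5 (7.44), a glycine transporter gene, and then Slc17a6 (3.01), Slc25a36 (2.93) and Slc12a8 (2.91). Among the gene models, 1600014C23Rik (13.7), 1810010H24Rik (12.3), 1700020D05Rik (5.44), Gm49359 (5.16) and 4930447C04Rik (4.23) followed the pair named above.

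Genes with functions in every cell, and the more specialised lists given after them, had shares whose intervals held the 2.6% of all promoter peaks. Cytosolic ribosomal proteins had 1 of 85 promoter peaks (1.18%; 0.208% to 6.37%), at Rpl3l (4.50), a form made in muscle, and mitochondrial ribosomal proteins 2 of 87 (2.30%; 0.633% to 8.00%), at Mrps12 (6.16) and Mrpl24 (3.37). The member of Mrps12 lay at the same start as an open promoter peak, and that of Mrpl24 belonged to a gene open at another start. Proteasome subunits had 1 of 42 (2.38%; 0.422% to 12.3%), beside the open start of Psmd11 (3.59). Oxidative phosphorylation subunits had 0 of 81, which allows a share of up to 4.53%, and replication-dependent histones 0 of 58, which allows up to 6.21%. Core and naive pluripotency genes had 1 of 30, beside the open start of Dppa2 (3.29). Collagens had 0 of 32, which allows up to 10.7%, and olfactory, vomeronasal and taste receptors 0 of 8, which allows up to 32.4%. Cytochrome P450 genes had 1 of 27, at Cyp2t4 (3.38), and orphan and adhesion G protein-coupled receptors 1 of 67, at Gpr153 (3.28).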

How the data were processed

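The 2 H3K4me3 ChIP-seq and 2 ATAC-seq replicates were used as the 1 list of replicated peaks deposited for each assay. For H3K4me3, the authors ran ENCODE's uniform histone pipeline with defaults. Its aligner, threshold and build are not given in the sources used here, and its positions fit mm10. The deposited columns give a fold enrichment (a ratio) and −log10 p-values and q-values per peak. For ATAC-seq, the authors aligned with bowtie 1.1.2, filtered with samtools, moved read ends by 4 bp and called peaks with MACS2 2.1.1.20160309. They set a p-value limit for the calls and kept replicated peaks with bedtools 2.27.1. The deposited list of 179109 ATAC-seq peaks has positions only, so weak and strong ones count alike here. PLAC-seq and input samples were not used here.

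Peaks were compared with starts of GENCODE M21 protein-coding transcripts (56288 on the autosomes) in pandas 2.3.3 and numpy 2.4.6 under Python 3.11.15, with matplotlib 3.10.9 and scipy 1.17.1. Any shared base counted. The assignment was tested on simulated peaks and checked with bedtools 2.31.1, which gave 398 members. Sequence came from the GRCm38.p6 assembly of RefSeq, which is mm10, and 1 start window that the rule for sequences chose is not reported here. Genes were named by rank (the 10 highest folds, the 5 widest, the 5 farthest from ATAC-seq peaks and the 4 on either side of the limit) or from 21 gene lists (at most the 6 strongest of a list). The members and the lists were chosen with earlier results of these data known. No test was made, because the rule chose the members and the lists have no replicates. The alternatives tried were other windows, other transcript sets, a q-value limit, other definitions of a shared peak and all chromosomes.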

Additional observations from a re-analysis of the deposited data

Results flagged for a closer look

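Chromosome X was outside the comparison above. There 15 of 560 promoter peaks (2.68%; 95% Wilson interval 1.63% to 4.37%) shared no base with an ATAC-seq peak, and the share on chromosomes 1 to 19 was 2.60%. It is given here because members were found on a chromosome that the rule left out. Their median fold was 4.01, against 22.3 for the other promoter peaks of chromosome X, and their median width was 446 bp.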

How the results depend on the processing

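In each of the 10 alternatives the members had a lower median width and a lower median fold than the open promoter peaks. The number and share of members were 265 and 1.78% with 500 bp either side of a start, 823 and 5.03% with 2 Kb, 614 and 3.74% with every transcript of a coding gene, and 231 and 1.51% when an ATAC-seq peak within 500 bp also counted. They were 1366 and 8.93% when an ATAC-seq peak counted only with 50% or more of it inside the H3K4me3 peak, and 720 and 4.71% with the widest 50% of ATAC-seq peaks. With principal transcripts only, chosen after seeing the data, they were 257 and 1.85%. The share was 2.14% with GENCODE basic transcripts and 1.96% with a −log10 q of at least 5. The median fold was 3.65 with 500 bp, 3.91 with the q limit, 4.97 with 50% inside, 3.64 with ATAC-seq peaks within 500 bp counted and 4.01 with the widest 50%. The median width was 584.5 bp with the q limit, 591 bp with 50% inside and 612.5 bp with the widest 50%. The other 16 values stayed within the interval of the main value or, for the number, within 1.5 times. No paired analysis was possible because each list stands for both replicates, and no replicate could be left out for the same reason. Depth is unknown, so an ATAC-seq peak that was not called cannot be told apart from closed chromatin. Pooled cells of a feeder-grown culture cannot show whether mark and accessibility come from the same cells, or from which allele of the hybrid line.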
